A study of Mus musculus with 8 samples.

Results

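The genes of DNA replication examined here were 48 genes that license origins, build and move the replication fork and guard it during S phase: the MCM2-7 helicase and the factors that load and activate it, the replicative polymerases, the sliding clamp and its loaders, the single-strand binding protein RPA, the enzymes that join Okazaki fragments, E2F transcription factors and fork checkpoint genes. They were taken by gene symbol from a list, by a rule that uses no measured value. All 48 were found, each in 1 row, among the 35072 genes of the deposited table, and all 48 were among the 13299 genes with counts high enough to test. The study measured RNA in CD8 T cells from the spleen and lymph nodes of wildtype mice. Naive cells were activated for 18 h through CD3 and CD28 in the presence of IL-12, the cytokine that favours a type 1 cytotoxic programme, and 4 libraries then came from cells kept for 24 h with 2 mM formate, a one-carbon metabolite, and 4 from cells kept with PBS, the vehicle (controls). Activation, IL-12 and the wildtype genotype were shared by both groups. Strain, age and sex are not stated in the labels, nor whether the 4 libraries of a group came from separate animals or cultures, so that p-values measure the spread between these libraries, which may be technical. The comparison asks how formate alters the transcripts of the replication machinery. In bulk RNA such as this, fewer cells in S phase and less RNA per cell cannot be told apart.

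Before S phase, the origin recognition complex, Cdc6 and Cdt1 load the ring-shaped MCM2-7 helicase onto DNA in an inactive form, a step called licensing, and geminin blocks Cdt1 once replication has begun so that no origin fires again. The Cdc7-Dbf4 kinase, Cdc45, the GINS complex and Mcm10 then turn the loaded ring into a moving helicase. Polymerase alpha with primase starts each strand, replication factor C loads the clamp PCNA, polymerases epsilon and delta extend the leading and lagging strands, RPA covers the single-stranded DNA, and Fen1 and Lig1 finish the Okazaki fragments. Many of these genes are textbook targets of E2F transcription factors, which act at the passage from G1 to S phase. Naive T cells rest outside the cell cycle and switch this machinery on when activated, after which they divide fast.

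All 6 subunits of the MCM2-7 helicase were lower with formate, each by 11.2% to 14.0%, together with the large polymerase subunits Pola1 and Pold1, Pold2, the ligase Lig1, the clamp loader subunit Rfc1, Rpa1 and the fork protection gene Timeless. Rpa3, Cdc7, Gins4 and Rfc3 were higher. These 17 calls, 13 of them lower and 4 higher, hold only when libraries with neighbouring title codes are treated as pairs, in a fit called paired here (edgeR's quasi-likelihood test with the pair as a block, Benjamini-Hochberg adjusted p under 0.05 over all genes tested). In that fit 27.1% of the 48 genes were called lower beside 7.52% of all tested genes, and 8.33% were called higher beside 5.35%. The 48 genes were better measured. Their median level was 119 CPM (counts scaled to a common library size) beside 22.4 CPM for all tested genes. The median standard error (SE) of the paired log2 change was 0.0476 beside 0.0702. Shares were not compared with genes of like level, here or below, so a trait particular to replication genes was not tested by them. With DESeq2 in the same paired design 14 were called lower and 2 higher. The other 31 genes did not pass, with log2 changes between -0.13 and 0.16. Without the pairs, in the fit that the labels alone allow, 0 of the 48 genes passed in edgeR or in DESeq2, with edgeR adjusted p values from 0.998 to 1.00. Over all tested genes that unpaired edgeR fit called 0.00752% higher (a single gene, the transsulfuration enzyme Cth) and 0% lower. At an unadjusted edgeR p under 0.05, 1 of the 48 was higher (Cdc7, beside 3.05% of all genes) and 1 lower (Lig1, beside 1.72%). In what follows, rose and fell are used only for genes past the paired threshold.

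The title codes run 10 and 11, 13 and 14, 1 and 2, and 7 and 8, and each such pair of neighbours holds 1 control and 1 formate library. These are called pairs 1 to 4 here, so that control 1 and formate 1 carry codes 10 and 11, and so on; no label states that neighbours belong together. The estimates hardly depend on the pairing, the errors do: over the 48 genes the SE of the log2 change was 0.07 to 0.26 unpaired (median 0.101) and 0.04 to 0.08 paired (median 0.0476). The number called also depended on each pair. Without pair 1 it was 13, without pair 2 it was 5, without pair 3 it was 3 and without pair 4 it was 8. The shares of all tested genes called in these smaller fits are not given here. A loss of calls particular to these genes can therefore not be read from the counts. Pold2 and Lig1 passed in all 4 of these fits. Beside them Mcm3, Cdc7 and Rpa3 passed without pair 2, Pola1 passed without pair 3, and Mcm2, Mcm3, Cdc7, Pola1, Rpa1 and Rpa3 passed without pair 4. All 17 kept the sign of their change in each of them, and in every other fit that was run. Tested against a minimum of 1.2-fold, 0 of the 48 passed. The largest decrease was that of Lig1, 19.3%.

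**Figure D1:**
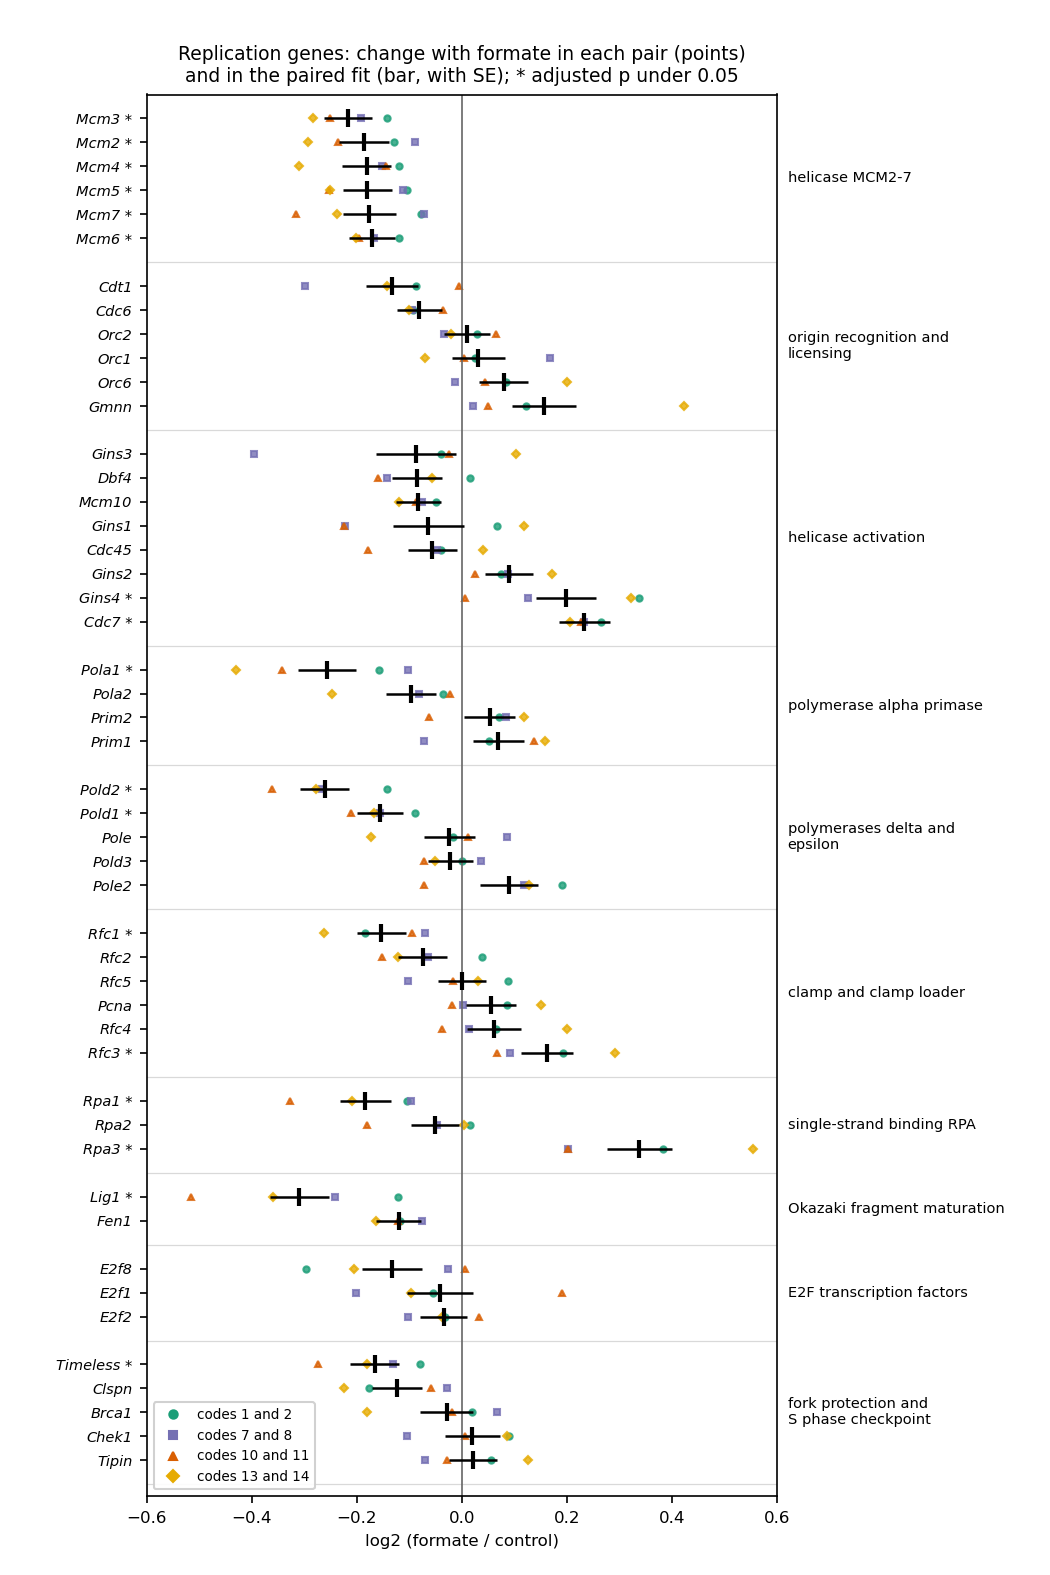
Log2 ratio of formate to control for the 48 genes, grouped by role. Symbols give the ratio in each of the 4 pairs of neighbouring title codes, the black bar gives the paired edgeR estimate with its SE, and an asterisk marks an adjusted p under 0.05; the 6 MCM2-7 genes lie left of 0 in all 4 pairs.

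Over the whole set the direction was mixed. The median log2 change was -0.060 paired and -0.062 unpaired, where the median of all tested genes was -0.0031 and -0.0080, and 32 of the 48 genes had a paired change below 0 (66.7%, beside 50.8% of all tested genes paired and 51.8% unpaired). By pair the median was -0.0488, -0.0832, -0.0257 and -0.0724 in pairs 1 to 4, below 0 in each. Lower in 4 of 4 pairs were 19 genes (39.6%, beside 19.5% of all tested genes), and higher in 4 of 4 were 6 (12.5%, beside 16%). Ranges of the 2 groups separated completely for 3 genes that were lower with formate (Lig1, Rpa1 and Pold1; 6.25%, beside 1.85%) and for 1 that was higher (Cdc7; 2.08%, beside 2.44%). Levels are given below as CPM, counts scaled to a common library size, after TMM normalisation. Summed over the 48 genes they were 8351, 8642, 8679.9 and 9091 CPM in controls 1 to 4 and 7585, 8076, 8386 and 8575 CPM in formate libraries 1 to 4, lower with formate in each pair and with overlapping ranges.

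Libraries held 29361986 to 41393093 counts. The defining genes of CD8 T cells were present in every library (8 of 9 listed genes in the table, 2066 to 2750 CPM summed). Markers of CD4 T cells summed to 12.8 to 22.0 CPM and stromal markers to 17.5 to 24.3 CPM. Those of NK cells and of erythroid cells and platelets were at 0.315 CPM or less. Some other measures moved with formate in all 4 pairs. B cell markers (9 genes, all tested, 1 of them called higher) summed to 176 to 189.9 CPM in controls and 171 to 182 CPM with formate, lower in each pair. Myeloid and dendritic markers (10 genes, 4 tested, 0 called) summed to 3.64 to 6.17 and 4.77 to 6.99 CPM, higher in each pair. Counts of the 13 mitochondrially encoded genes made up 0.429, 0.566, 0.438 and 0.414% of controls 1 to 4 and 0.906, 0.725, 0.618 and 0.560% of formate libraries 1 to 4, higher in each pair (exact two-sided permutation p = 0.0571, n = 4 a group, where 0.0286 is the smallest possible). The part of these measures in the changes of the replication genes was not tested. The main axis of variation in the series, 51.2% of the variance, set codes 10 to 14 (pairs 1 and 2) apart from codes 1 to 8 (pairs 3 and 4), a split the labels do not explain.

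Among the helicase subunits Mcm3 (chr1:20802968-20820312 on GRCm38) changed most. It measured 536, 593, 642 and 653 CPM in controls 1 to 4 and 450.1, 487, 581 and 571 CPM in formate libraries 1 to 4. Each formate library lay below its own control, while the group ranges overlapped, with pair 1 low in both groups. From 606 ± 53.4 CPM in the controls and 522 ± 64.0 CPM in formate libraries (SD, n = 4) it fell by 0.22 on the log2 scale (SE 0.05, paired edgeR adjusted p = 0.00776; unpaired log2 change -0.21, SE 0.11). Without pair 3 the adjusted p was 0.0526, and without any other single pair the call held. Mcm2 (chr6:88883474-88898780) was at 319, 381, 428 and 405 CPM in controls and 271, 311, 391 and 381 CPM with formate (paired edgeR log2 change -0.19, SE 0.05, adjusted p = 0.0190). Mcm5 read 518, 578, 627 and 628 CPM and, with formate, 434, 485, 584 and 581 CPM (log2 change -0.18, SE 0.05, adjusted p = 0.0218). In both genes, as in Mcm3, pair 1 was lowest and pairs 3 and 4 were highest in each group, though the highest control of Mcm2 was that of pair 3.

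Mcm4 was at 349.7, 369, 433 and 416 CPM in controls and 316, 297, 398 and 375 CPM with formate (log2 change -0.18, SE 0.05, adjusted p = 0.0201 in the paired edgeR fit). For Mcm6 the values were 559, 588, 636 and 647 CPM and 488, 511, 585 and 575 CPM (log2 change -0.17, SE 0.04, adjusted p = 0.0209). Their group ranges overlapped as well, and again no formate library exceeded its own control. Mcm6 kept the order of libraries of Mcm3, and Mcm4 kept it in controls but had its lowest formate value in pair 2. Mcm7 had another order: controls held 555, 524, 470.4 and 509.7 CPM and formate libraries 446, 444, 445 and 485 CPM (log2 change -0.18, SE 0.05, adjusted p = 0.0322). Its highest control was that of pair 1 and its highest formate library that of pair 4, which lay above the lowest control. Mcm7 overlaps the genes Cops6 and Ap4m1 on the opposite strand, and whether counting used the strand is not stated.

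Taken as 1 complex, the 6 subunits summed to 2837, 3032, 3236 and 3259 CPM in controls 1 to 4 and 2405, 2536, 2984 and 2968 CPM with formate. The sum was lower in each pair, and the 2 groups overlapped. In pairs 1 and 2 the median change of the 6 genes was -0.24 and -0.27, in pairs 3 and 4 it was -0.12 and -0.13. All 6 kept their call with RLE size factors, with DESeq2 and with the trend on GC content removed; with library size alone 4 did. Without pair 1, 2, 3 or 4 the calls left among the 6 were 4, 1, 0 and 2, and over these fits the edgeR adjusted p ran from 0.0186 to 0.130. The direction of the change was thus the same in all pairs, while 0 of the 6 calls were left without pair 3. The share of all tested genes called without pair 3 is not given here.

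**Figure D2:**
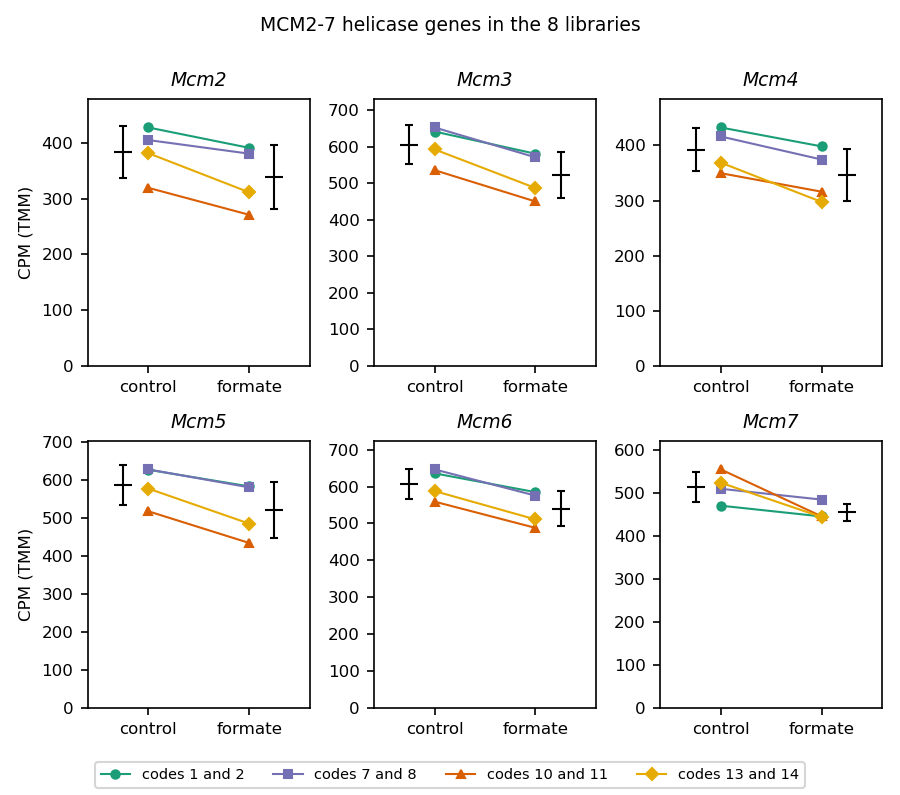
TMM-normalised CPM of the 6 MCM2-7 genes in each library, with lines joining the control and the formate library of neighbouring title codes and bars giving mean and SD over the 4 libraries of a group. Every line slopes down, and the 2 groups overlap in each panel.

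Genes that fell and genes that did not were set beside their promoter sequences, since E2F sites are the best-known shared feature of this set. RefSeq windows on GRCm38.p6, from 250 bases before to 50 bases after a listed transcription start, were matched for 39 of the 48 genes. Where a gene had more than 1 listed window, as 7 of them did, only the first was searched. A listed start need not be the start of the GENCODE gene. The Timeless window, chr10:128237816-128238115, lies inside its gene, which begins at 128232065 on the plus strand. An E2F-type motif was searched for on both strands in 4 spellings, of which the first was TTTGGCG, the next was TTTCGCG, the third was TTTCCCG and the last was TTTGCCG. It was in 21 of the 39 windows (53.8%), against 6.85% of all 27025 promoters of the same length and 10.3% of the 8203 promoters with a GC content between the quartiles of the 39. A shifted core, spelled TTGGCGC in its first form, then with TTCGCGC and also with TTCCCGC, each sharing 6 letters with 1 of these motifs, was in 61.5% against 8.21% of all and 12.4% of those of like GC. The CCAAT box was in 61.5% against 37.9% and 38.4%, and the CHR element (TTTGAA or TTCGAA) in 23.1% against 19.4% and 12.4%. Sorted by the paired calls, 7 of 12 windows of genes that fell held the E2F-type motif, 2 of 3 of genes that rose, and 12 of 24 of genes that did not pass. Timeless and Lig1, which has 3 listed windows, were among the genes that fell without the motif in the window searched. The stretches below show this mixture within the genes that moved together and against them. Capitals mark the E2F-type matches, positions are relative to the transcription start, and each is printed 5′ to 3′ on the strand of its gene.
Mcm5 (chr8:75109339-75109508, plus strand, -170 to -1): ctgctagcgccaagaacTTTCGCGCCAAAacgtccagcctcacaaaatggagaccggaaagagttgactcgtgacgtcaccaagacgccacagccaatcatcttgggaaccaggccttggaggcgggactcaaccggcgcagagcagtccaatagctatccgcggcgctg
Mcm6 (chr1:128359706-128359875, minus strand, -170 to -1): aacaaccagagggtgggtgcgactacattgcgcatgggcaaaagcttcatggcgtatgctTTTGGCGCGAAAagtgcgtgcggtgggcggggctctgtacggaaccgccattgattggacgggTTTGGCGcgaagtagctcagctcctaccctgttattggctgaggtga
Mcm2 (chr6:88898781-88898950, minus strand, -170 to -1): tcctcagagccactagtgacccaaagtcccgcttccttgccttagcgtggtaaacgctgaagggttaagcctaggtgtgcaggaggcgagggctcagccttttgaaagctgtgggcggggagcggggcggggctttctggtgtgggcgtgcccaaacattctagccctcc
Pola1 (chrX:93632156-93632325, minus strand, -170 to -1): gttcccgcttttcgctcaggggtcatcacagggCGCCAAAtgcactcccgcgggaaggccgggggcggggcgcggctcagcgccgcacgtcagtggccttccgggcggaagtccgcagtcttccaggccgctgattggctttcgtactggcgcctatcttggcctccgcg
Cdc7 (chr5:106964152-106964321, plus strand, -170 to -1): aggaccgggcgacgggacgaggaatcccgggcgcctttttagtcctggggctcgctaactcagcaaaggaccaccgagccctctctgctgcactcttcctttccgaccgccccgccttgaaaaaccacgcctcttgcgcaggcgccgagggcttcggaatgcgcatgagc
Mcm3 (chr1:20820266-20820295, minus strand, +18 to +47): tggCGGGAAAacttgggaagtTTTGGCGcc
Mcm7 (chr5:138171847-138171876, minus strand, +8 to +37): gtgacgacgTTTCGCGccaatttcggttgg
Rfc3 (chr5:151651194-151651223, minus strand, -15 to +15): cacgcTTTCGCGctcgCGGGAAAactctac

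Mcm5 carries overlapping matches on both strands in 1 place and Mcm6 matches at more than 1 place. Mcm2, which fell as much as these, has neither this motif nor the shifted core in its window. Cdc7, which rose, lacks this motif and holds 1 match to the shifted core. Rfc3, which also rose, has a match on either side of its start. Windows with and without the motif occurred among the genes that fell and among those that rose, and no match says only that these letters are not in this window. These matches are a description of the reference sequence, not of binding in these cells.

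The genes that recognise and license origins did not pass: 0 of 6 were called, with log2 changes from -0.13 to 0.16. The loader Cdc6 was at 111, 129, 143 and 148 CPM in controls and 108, 121, 134 and 139 CPM with formate (paired edgeR log2 change -0.08, SE 0.04, adjusted p = 0.224). For Cdt1, its partner in loading, the values were 106, 123, 128 and 137 CPM and 106, 112, 120.5 and 111 CPM (log2 change -0.13, SE 0.05, adjusted p = 0.0911). Both were lower with formate in each pair, by amounts that in edgeR did not pass. Gmnn, which encodes the Cdt1 inhibitor geminin, was at 149.5, 132, 86.8 and 116 CPM and, with formate, 155, 177, 94.4 and 118 CPM (log2 change 0.16, SE 0.06, adjusted p = 0.109). It was higher in each pair, but 1 pair, the second, gave a difference of 0.42 against 0.02 to 0.12 in the others. The origin recognition genes Orc1, Orc2 and Orc6 had log2 changes of 0.03, 0.01 and 0.08. MCM2-7 and its loaders are counted here by different tests of each gene, and a difference between them was not tested.

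In the paired edgeR fit 2 of the 8 genes of helicase activation rose, 0 fell and 6 did not pass. Of all tested genes 5.35% were called higher and 7.52% lower. The role as a whole did not lean higher, as 5 of its 8 genes had a change below 0 and their median was -0.060. Cdc7, the kinase subunit that phosphorylates the loaded MCM ring (chr5:106964322-106984432), was at 50.2, 54.2, 46.8 and 49.4 CPM in controls and 58.7, 62.6, 56.3 and 58.02 CPM with formate. Every formate library lay above every control. Its log2 change was 0.23 (SE 0.05, paired edgeR adjusted p = 0.00775), 17.5% higher, with pair differences of 0.23, 0.21, 0.27 and 0.23. Without pair 3 the adjusted p was 0.0628. Dbf4, the regulatory subunit that Cdc7 needs for its activity, was at 97.1 ± 6.71 CPM in the controls and 91.5 ± 8.34 CPM in formate libraries (SD, n = 4; log2 change -0.09, SE 0.05, paired edgeR adjusted p = 0.246).

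Of the GINS complex, which holds Cdc45 on the helicase, Gins4 rose: controls held 94.7, 82.5, 56.9 and 72.7 CPM and formate libraries 95.1, 103, 71.9 and 79.3 CPM (log2 change 0.20, SE 0.06, adjusted p = 0.0328 in the paired edgeR fit). The pairs differed more from each other than from control to formate, and in pair 1 the log2 difference was only 0.00555. With 1 pair left out the edgeR adjusted p was 0.0160 to 0.201, and in the paired DESeq2 fit Gins4 was not called. Gins1, Gins2 and Gins3 had log2 changes of -0.06, 0.09 and -0.09 and did not pass, so the 4 subunits were not called together. Cdc45 itself was at 117, 116, 125 and 134 CPM and 103, 119, 122 and 129.7 CPM (log2 change -0.06, SE 0.05, adjusted p = 0.461). Mcm10, which helps to open the activated helicase, had a log2 change of -0.08 (adjusted p = 0.215), lower in each pair.

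Of the 9 genes of the replicative polymerases 3 fell and 0 rose, beside 7.52% and 5.35% of all tested genes. Pola1, the catalytic subunit of polymerase alpha that extends each RNA primer (chrX:93304767-93632155), was at 96.4, 98.6, 117 and 106 CPM in controls and 76.0, 73.1, 105 and 98.6 CPM with formate. The step was largest in pairs 1 and 2, with log2 differences of -0.34 and -0.43, against -0.16 and -0.10 in pairs 3 and 4. The paired edgeR estimate was -0.26 (SE 0.06, adjusted p = 0.00877; 0.0630 without pair 2), and -0.37 with the trend on GC content removed. Pola2 had a log2 change of -0.10 (adjusted p = 0.196), and the primase subunits Prim1 and Prim2 had 0.07 and 0.05 and did not pass.

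Pold2, the second subunit of lagging-strand polymerase delta (chr11:5872180-5878292), was at 110.0, 121, 134 and 142 CPM in controls and 85.6, 99.8, 121 and 118 CPM with formate. Its log2 differences in the 4 pairs lay between -0.36 and -0.14, and its ranges overlapped, as the lowest control, of pair 1, lay below the formate libraries of pairs 3 and 4. It had the smallest adjusted p of the 48 genes (log2 change -0.26, SE 0.05, adjusted p = 0.00426 in the paired edgeR fit). The catalytic subunit Pold1 was at 210.2, 203, 203 and 216 CPM and, with formate, 182, 180.4, 191 and 194 CPM (log2 change -0.16, SE 0.04, adjusted p = 0.0283). All 4 formate libraries lay below all 4 controls, in a gene whose SD within each group was smaller than that of any helicase subunit. With the GC trend removed its adjusted p was 0.0922, and with 1 pair left out 0.0630 to 0.0985. Pold3 had a log2 change of -0.02, and Pole and Pole2, of the leading-strand polymerase epsilon, had -0.02 and 0.09; none of these passed.

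The clamp and its loader had 1 gene that fell, 1 that rose and 4 that did not pass. Pcna, the ring that tethers the polymerases, was at 921, 855, 707 and 844 CPM in controls and 909, 948, 751 and 846 CPM with formate (log2 change 0.06, SE 0.05, adjusted p = 0.484 in the paired edgeR fit). It was higher in 3 of 4 pairs, with wide overlap. Among the 5 replication factor C genes, which open and load the clamp, the large subunit Rfc1 fell and the small subunit Rfc3 rose, with adjusted p values of 0.0443 to 0.199 and 0.0374 to 0.201 when 1 pair was left out. Rfc1 was at 142, 162, 188 and 168 CPM in controls and 133, 135, 166 and 160.4 CPM with formate (log2 change -0.15, SE 0.05, adjusted p = 0.0391), lower in each pair. Rfc3 was at 88.6 ± 10.2 CPM in the controls and 99.3 ± 13.7 CPM in formate libraries (SD, n = 4; log2 change 0.16, SE 0.05, adjusted p = 0.0404 in the paired edgeR fit), and had an adjusted p of 0.0606 with the GC trend removed. In the paired DESeq2 fit Rfc3 was not called. Rfc2, Rfc4 and Rfc5 had log2 changes of -0.08, 0.06 and -0.000262 and did not pass.

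The 3 subunits of RPA, which coat and protect single-stranded DNA as a trimer, gave 1 call lower, 1 higher and 1 gene that did not pass. Rpa1, the large DNA-binding subunit (chr11:75298166-75348324), was at 351, 339.7, 343 and 355 CPM in controls and 279.9, 294, 318 and 332 CPM with formate. Controls lay within 339.7 to 355 CPM, and every formate library was below them (log2 change -0.18, SE 0.05, adjusted p = 0.0221 in the paired edgeR fit). With 1 pair left out its adjusted p was 0.0491 to 0.0875. Rpa2 had a log2 change of -0.05 (adjusted p = 0.509) and did not pass. Rpa3, the smallest subunit (chr6:8255936-8259173), was at 61.9, 52.0, 30.2 and 44.2 CPM in controls and 71.2, 76.4, 39.4 and 50.9 CPM with formate. It had the largest increase of the 48 (log2 change 0.34, SE 0.06, adjusted p = 0.00460 in the paired edgeR fit), 26.4% higher, but also the largest unpaired SE (0.26): controls of pairs 1 and 2 lay above the formate libraries of pairs 3 and 4. With the GC trend removed its change was 0.20 and its adjusted p 0.0531. Without pair 3 the adjusted p was 0.0534.

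Lig1, the ligase that seals Okazaki fragments (chr7:13277283-13311433), had the largest decrease. It was at 337, 305, 286 and 319.5 CPM in controls and 235, 238, 263 and 270.0 CPM with formate. No formate library reached the lowest control, and the step was largest in pair 1, which had the highest control and the lowest formate library. From 312 ± 21.4 CPM in the controls and 252 ± 17.7 CPM in formate libraries (SD, n = 4) it fell by 0.31 on the log2 scale (SE 0.06, paired edgeR adjusted p = 0.00477). The call held without any 1 pair (adjusted p from 0.0161 to 0.0483), within codes 1 to 8 alone (0.0301) and within codes 10 to 14 alone (0.0386). It was the 1 gene of the 17 called in both sets of codes taken alone. Fits of a single set held 2 pairs each and were chosen after seeing the data. The shares of all tested genes called in them are not given here. Pair differences were -0.52 and -0.36 in pairs 1 and 2, against -0.12 and -0.24 in pairs 3 and 4. In the unpaired edgeR fit the log2 change of Lig1 was -0.31 (SE 0.09) and did not pass. Fen1, the flap nuclease that prepares the nick for Lig1, was at 181 ± 15.3 CPM in the controls and 167 ± 16.7 CPM in formate libraries (SD, n = 4; log2 change -0.12, SE 0.04, adjusted p = 0.0744), lower in each pair.

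**Figure D3:**
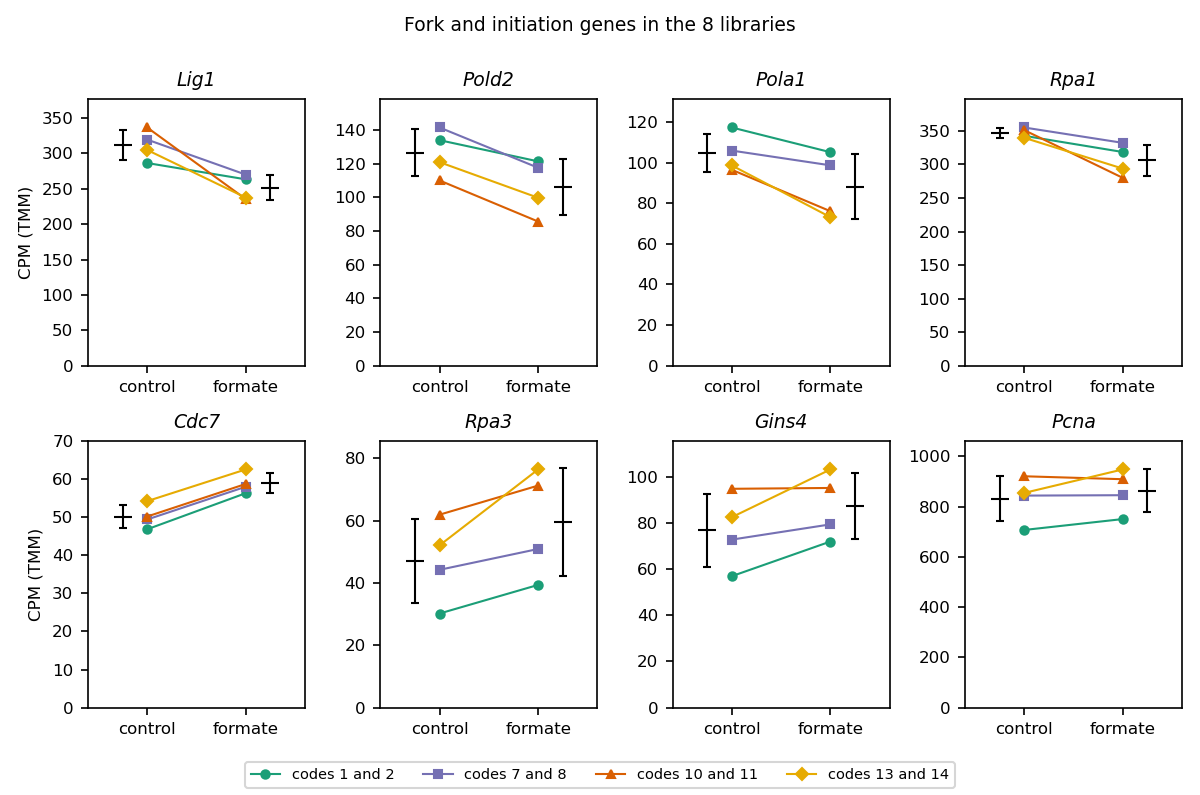
TMM-normalised CPM of 8 fork and initiation genes in each library, with lines joining neighbouring title codes and bars giving mean and SD over the 4 libraries of a group. Lig1 and Rpa1 separate by group, Cdc7 separates in the other direction, and Pcna does not move with formate in all pairs.

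The E2F transcription factors did not pass (0 of 3 called). E2f1, an activator of S phase genes, was at 42.3, 46.5, 45.4 and 51.0 CPM in controls and 48.3, 43.5, 43.7 and 44.3 CPM with formate (log2 change -0.04, SE 0.06, adjusted p = 0.716 in the paired edgeR fit). Its formate libraries were nearly level but for that of pair 1, the highest, which lay above its control while the other 3 lay below theirs. E2f2, another activator, had a log2 change of -0.03, and E2f8, a repressor of the same targets, one of -0.13 (adjusted p = 0.133). Levels of these transcripts do not report the activity of the proteins.

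Timeless was the 1 gene called among the 5 of fork protection and the S phase checkpoint. It stabilises paused forks together with Tipin, and was at 107, 112, 118 and 116 CPM in controls and 88.2, 98.7, 112 and 106 CPM with formate (log2 change -0.17, SE 0.05, adjusted p = 0.0284 in the paired edgeR fit). It was lower in each pair, with groups overlapping, and had an adjusted p of 0.0515 with the GC trend removed and of 0.0738 to 0.0997 with 1 pair left out. Tipin had a log2 change of 0.02 (adjusted p = 0.810). Chek1, the kinase that restrains origin firing when forks stall, was at 53.8, 53.0, 51.1 and 62.5 CPM and 54.0, 56.3, 54.3 and 58.1 CPM (log2 change 0.02, SE 0.05, adjusted p = 0.842). Brca1, which protects stalled forks and takes part in repair, was at 77.0, 77.5, 82.3 and 71.4 CPM and 76.0, 68.3, 83.4 and 74.8 CPM (log2 change -0.03, SE 0.05, adjusted p = 0.758). For both the groups overlapped and the pairs disagreed in direction. Clspn, the adaptor that carries the checkpoint signal to Chek1, had a log2 change of -0.12 (adjusted p = 0.0996), lower in each pair.

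Levels of different genes were compared per kb of the longest protein-coding transcript, since longer transcripts give more counts. Within MCM2-7, whose subunits form the ring in equal numbers, controls ran from 109 ± 10.9 CPM per kb for Mcm4 and 114 ± 13.8 for Mcm2 through 139 ± 9.43 for Mcm6 and about equal levels of Mcm7 (174 ± 11.8) and Mcm5 (174 ± 15.5) to 199.9 ± 17.6 for Mcm3 (SD, n = 4). Mcm2 and Mcm4 did not differ beyond their spread, nor did Mcm5 and Mcm7. These proportions were nearly the same with formate: Mcm3 made up 21.9 ± 0.613% of the summed level per kb in controls and 21.5 ± 0.375% with formate, and Mcm2 12.5 ± 0.854% and 12.5 ± 0.830%. Mcm7 had the widest spread, 19.2 ± 2.45% and 19.3 ± 1.76%. The GINS genes were less even, from 10.2 ± 0.992 CPM per kb for Gins3 to 56.9 ± 11.8 for Gins4 in controls. Pola1 stood lowest in its complex, at 19.6 ± 1.76 CPM per kb beside 75.1 ± 5.73 for Prim1, and was lower still with formate (16.5 ± 2.996). Pcna, at 548 ± 59.1 CPM per kb, was above every other member. The transcript that each gene uses in these cells is not known from the table, and lengths carry that uncertainty.

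**Figure D4:**
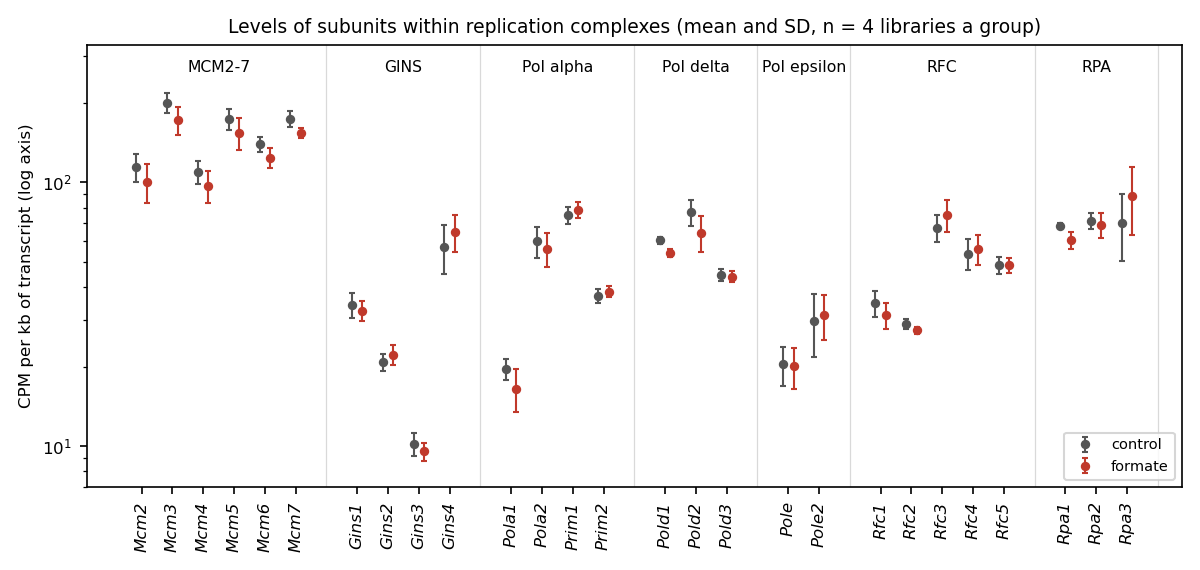
Level per kb of transcript, in CPM per kb on a log axis, of the subunits of 7 replication complexes in controls (grey) and with formate (red); points are means and bars SD over 4 libraries. All 6 MCM2-7 means are lower with formate, while in the GINS complex, polymerase alpha, RFC and RPA some subunits are lower and others higher.

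Ratios within a library restate the changes above without a scaling factor. These ratios were chosen after the values had been seen, and they carry no test. More were computed than are printed, and that of Gins4 to Gins2 was higher in 3 pairs and lower in 1. Rpa3 was higher and Rpa1 lower in each pair, so their ratio could only rise. Cdt1 over Gmnn could likewise only fall. The ratio of Cdc7 to Dbf4 CPM was 0.559, 0.576, 0.474 and 0.468 in controls 1 to 4 and 0.731, 0.691, 0.565 and 0.607 with formate, higher in each pair. The ratio of Rpa3 to Rpa1 went from 0.176, 0.153, 0.0881 and 0.125 to 0.254, 0.260, 0.124 and 0.153, also higher in each pair. In both, subunits of 1 complex differed in their change; neither is a ratio of molecules, since transcripts differ in length. Summed MCM2-7 over Pcna was 3.08, 3.55, 4.58 and 3.86 in controls and 2.65, 2.68, 3.98 and 3.51 with formate, lower in each pair. Cdt1 over Gmnn was 0.708, 0.935, 1.48 and 1.18 in controls and 0.682, 0.632, 1.28 and 0.943 with formate, and lower in each pair as well. In all 4 ratios printed by library the groups overlapped, and within each group pairs 1 and 2 lay on 1 side and pairs 3 and 4 on the other.

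Most of these genes differed more between the code sets than with formate. For 37 of the 48 genes the log2 difference between codes 10 to 14 and codes 1 to 8 was larger in size than the paired change with formate (median size 0.17 and 0.090). The set difference was also the wider one over all tested genes, with quartiles of -0.25 and 0.30 beside -0.11 and 0.13 for the paired change. The 37 are thus not a trait shown to be particular to these genes. The sets did not overlap for 18 genes (37.5%, beside 33.9% of all tested genes), 7 of them higher in codes 10 to 14 (14.6%, beside 16% of all) and 11 lower (22.9%, beside 17.9%). Rpa3 (log2 difference 0.68), Gmnn (0.56), Pole2 (0.51) and Gins4 (0.42) were higher in codes 10 to 14, and Mcm10 (-0.40) was lower. The 4 genes that rose with formate were all higher in codes 10 to 14, and 12 of the 13 that fell were lower there, Mcm7 being the exception. Both differences are taken over the same 8 libraries, and the same split over all genes called in the paired fit was not counted. Each set held 2 controls and 2 formate libraries, so the set does not stand for the treatment, but the labels do not say what it stands for. With the set as a covariate and no pairs, 0 of the 48 genes passed in edgeR (adjusted p from 0.254 to 0.999). A test of whether the change with formate differed between the sets called 0 of 48 in edgeR (smallest adjusted p 0.869; 3 had an unadjusted p under 0.05, Mcm7, Pola1 and Lig1), beside 0.0677% of all tested genes.

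**Figure D5:**
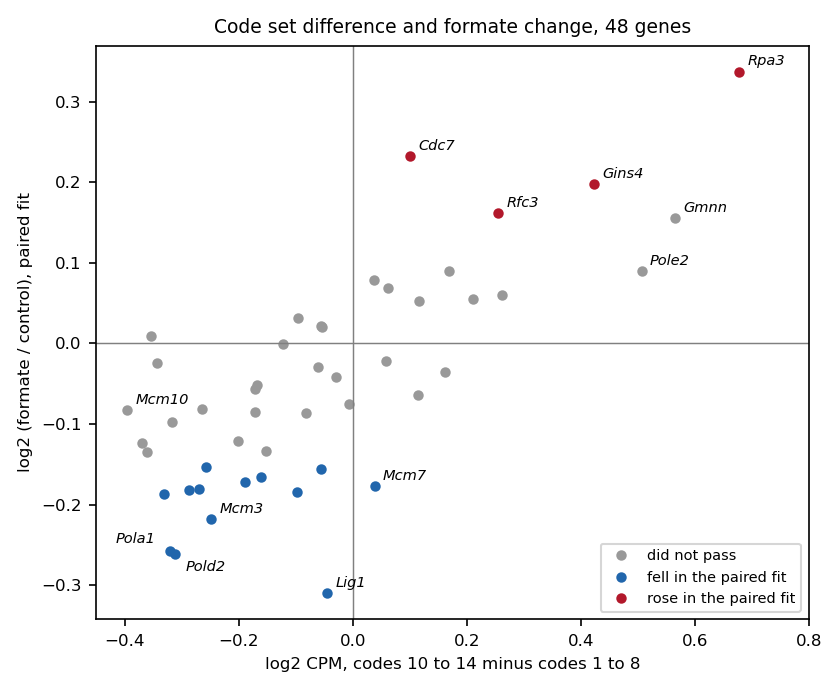
Paired log2 change with formate against the log2 difference between the sets of title codes, 1 point for each of the 48 genes, coloured by the paired edgeR call. The 4 genes that rose lie to the right of 0 and 12 of the 13 that fell lie to the left. Both axes come from the same 8 libraries, and the same split over all called genes was not counted.

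A further 69 genes of replication and its control, listed by role and all tested, gave 0 calls unpaired. In the paired edgeR fit 4 rose, 4 fell and 61 were past no threshold. This is near the shares of all tested genes, 5.35% called higher and 7.52% called lower. The genes named below are described singly, and no trait of the 69 is read from them. Of 14 other licensing and initiation genes Orc4, a subunit of the origin recognition complex, rose from 44.1 ± 3.40 CPM to 50.5 ± 4.78 CPM (SD, n = 4; log2 change 0.19, adjusted p = 0.0271), and Ccne2, cyclin E2, which drives entry into S phase, rose from 60.9 ± 3.96 CPM to 73.96 ± 11.8 CPM (0.27, adjusted p = 0.00842). Cdc25a, the phosphatase that frees CDK2 for that step, fell from 124 ± 37.9 CPM to 107 ± 26.4 CPM (-0.19, adjusted p = 0.0220). Among 10 genes of the E2F and RB family the repressor E2f6 rose (log2 change 0.24, adjusted p = 0.0200) and E2f4, which acts with the RB-like pocket proteins, fell (-0.14, adjusted p = 0.0395). Of 10 genes of replication-coupled chromatin 2 fell: Chaf1a, the large subunit of the histone chaperone CAF-1 (-0.23, adjusted p = 0.00714), and Uhrf1, which brings maintenance methylation to new DNA (-0.18, adjusted p = 0.0209). Fanca rose (0.19, adjusted p = 0.0386) as the 1 call among 11 genes of homologous recombination and the Fanconi pathway. With the GC trend removed the changes of Orc4 and Ccne2 were 0.00119 and 0.00353 and did not pass. Their transcripts have GC contents of 38.0% and 35.1%. E2f4 did not pass in that fit either (edgeR adjusted p = 0.0889). There 7 of the 69 genes were called lower and 2 higher, again near the shares of all tested genes (1066 and 426 of 13299). Of the 4 fits without 1 pair, Orc4 and Fanca were called in 0, Cdc25a, E2f4 and Uhrf1 in 1 each, E2f6 and Chaf1a in 2 each and Ccne2 in 3. None of 16 other polymerase and fork genes or of 8 genes of the ATR checkpoint passed in the paired fit of all libraries. With the GC trend removed, Hells, of the replication-coupled chromatin list, had the smallest adjusted p of the 69 (log2 change -0.27, edgeR adjusted p = 0.00388). It had not passed in the paired fit. The topoisomerases Top1 (log2 change -0.24, edgeR adjusted p = 0.00643) and Top2a (-0.21, 0.0177) and the ATR activator Etaa1 (-0.21, 0.0328) were also among those called lower. Without 1 pair Top1 was called in 1 fit. The 6 list medians were all between -0.081 and 0.024, where MCM2-7 had -0.18.

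Transcripts of the genes that fell and rose differed in length and base composition. The 13 genes that fell had a median transcript length of 3454 bases and a median GC content of 52.5%, and the 4 that rose 1333 bases and 46.8%. Over all genes the paired calls showed the same order, 3097 bases and 53.5% for genes called lower and 2713 bases and 45.2% for genes called higher, beside 2974.5 bases and 50.5% for all tested genes. Split at the middle GC content of the 48, the 24 genes of higher GC had a median log2 change of -0.11 and the 24 of lower GC one of 0.021. Tested genes on the same sides of that value had -0.040 and 0.042. With the GC trend of each library removed, 1066 of all 13299 tested genes were called lower and 426 higher. Of the 48 genes 13 were called, 11 lower and 2 higher, and of the 17 paired calls 4 were lost. Among these the log2 change of Rpa3 went from 0.34 to 0.20, while that of Rfc3 went from 0.16 to 0.15, that of Pold1 from -0.16 to -0.12 and that of Timeless from -0.17 to -0.15, with adjusted p of 0.0606, 0.0922 and 0.0515 in edgeR for the last 3. The part of transcript length was not tested. Overlapping genes are a further limit: 11 of the 48 genes share exon bases with another gene in the table whose counts come to at least 1% of their own, among them Mcm7 and Lig1, and reads of the 2 strands cannot be told apart without the strand setting.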

How the data were processed

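The genes and lists reported here, and the choice of a paired fit, were made with earlier results of these data known. RNA of 8 libraries was sequenced as pairs of 58 bp reads after a stranded polyA kit, per the labels' protocols; the submitters' processing notes name kallisto, Trimmomatic, MultiQC and the builds mm10 and GRCm38, with no version. Strand setting, transcriptome release and filters are not given in these sources. What the authors deposited is 1 table of estimated counts (expected counts per gene, neither normalised nor pooled), with 35072 genes, 8884 of them without a symbol (1.22% to 1.65% of a library's counts; kept under their identifiers). All values were rounded before testing, as 56.7% of those above 0 were fractional. Totals of 29361986 to 41393093 counts make counting noise small for these genes; 3 counts in the smallest library equal 0.102 CPM. No 2 libraries of a group agreed within sampling noise (smallest chi-square per degree of freedom 22).

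Groups come from the treatment label, and replicate numbers only name libraries. Counts were fitted over all genes with edgeR 4.0.16 in R 4.3.3 (filterByExpr, TMM, quasi-likelihood test with the robust option, p adjusted by Benjamini-Hochberg with a threshold of 0.05), which tested 13299 genes, first without pairs and then with neighbouring title codes as a block; the test was tried on simulated data. Deviations from the group means correlated at 0.656 (codes 10 and 11), 0.370 (13 and 14), 0.653 (1 and 2) and 0.369 (7 and 8) within pairs, and at 0.270 to 0.373 between libraries of the same code set that were not neighbours, so that the correlation sets only codes 1 and 2 and 10 and 11 clearly apart from their set. The pairing rests on the title codes and not on a stated design. CPM use TMM factors, and ± gives the SD of 4 libraries. Positions, GC content and transcript length are from GENCODE M21 (GRCm38), and promoters from RefSeq (GRCm38.p6).

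Values in every library are given for up to 16 genes called in the paired fit, by smallest p, for the largest change in each direction and for a list of well-known regulators. Genes outside the 48 are named only where called in the paired fit, apart from Hells, Top1, Top2a and Etaa1, chosen after their values were seen. Alternatives were other scalings, no filter on low counts, DESeq2 1.42.0, offsets for a loess trend of log2 CPM on GC content (span 0.5, prior count 2), a 1.2-fold minimum, the code set as a covariate, single code sets, and each pair or library left out. Single values per library were compared by exact permutation over 70 assignments.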

Additional observations from a re-analysis of the deposited data

Results flagged for a closer look

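Among 100 groups of 4 libraries (each of the 48 genes in each group, and library measures), 3 had 1 library set apart from the other 3 by more of the group's range than Dixon's 95% limit allows, where chance gives about 1 in 20. Mcm7 was at 485 CPM in formate 4, while the other 3 formate libraries lay between 444 and 446 CPM; its decrease with formate is the same in direction in all 4 pairs. E2f1 was at 48.3 CPM in formate 1, against 43.5 to 44.3 CPM in the other formate libraries, and this library alone was above its control. The mitochondrial share of counts was 0.566% in control 2, against 0.414% to 0.438% in the other controls, and lay above formate 4 (0.560%).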

How the results depend on the processing

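Without pairs 0 of the 48 genes passed under any setting, and with the replicate block 17 did. In the block, 16 passed with RLE size factors or DESeq2, 15 with upper quartile factors, 19 with no filter on low counts, 13 with GC offsets and 12 with library size only, where 8 were lower. Genes called higher were 2 of 4 with DESeq2 or GC offsets. Over all genes the split of 1000 lower and 711 higher became 1144 and 401 with DESeq2, 1066 and 426 with GC offsets, 736 and 832 with upper quartile factors and 539 and 1048 with library size only. Against a 1.2-fold minimum 0 passed, where 1 gene of all was lower and 5 higher. Without pair 1, 2, 3 or 4 of the block, 13, 5, 3 and 8 passed, of which 9, 3, 3 and 6 were lower, 4, 2, 0 and 2 higher, and 4, 1, 0 and 2 of MCM2-7. Within codes 1 to 8 the block called 7 (4 lower, 2 of them of MCM2-7), and within codes 10 to 14 it called 1, lower, and 0 of MCM2-7 or higher; this setting was chosen after seeing the data. Fewer libraries were fitted in these, and the shares of all tested genes called in them, or with no filter on low counts, are not given here. The median change of -0.062 unpaired was -0.026 with library size only and -0.030 to -0.086 with 1 library left out (-0.030 without control 4 and -0.033 without formate 1), and the paired median of -0.060 was -0.024 with library size only. The difference in mitochondrial share, 0.241 percentage points, was 0.173 to 0.288 with 1 library left out, with an exact permutation p of 0.0286 (n = 3 and 4, the smallest possible) without formate 4 against 0.0571 with all. The 17 paired calls, the medians of the 48 genes and the difference in mitochondrial share kept their sign in all settings. Genes that did not pass were not followed in this way. With GC offsets some of them changed sign, among them Tipin (0.02 to -0.11), Chek1 (0.02 to -0.11) and Orc2 (0.01 to -0.08). The means of the 48 genes were all above 24 CPM, and what limits the number of calls was not tested.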
